A study of Danio rerio with 8 samples.

Results

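Vesicle and membrane traffic genes of the early zebrafish embryo were compared between prmt6 morphants and control embryos. The members were the genes on the array whose platform symbol began with rab, arf, arl, sar1, sec, cop, trappc, vps, snx, stx, vamp, ap1 to ap4 or tmed in the form these gene families use. They numbered 160 of the 8793 genes with 1 symbol, and 140 of them were bright enough to be tested. By the known roles of their families, 55 were placed on the secretory route from the endoplasmic reticulum (ER) through the Golgi to the cell surface. Another 85 were placed on the endosomal route, and 20 matched the symbols but belonged to neither.

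Cells move proteins and lipids between organelles in vesicles. Coat complexes shape a vesicle and select its cargo: COPII at the ER, COPI at the Golgi, and clathrin with its AP adaptors at the trans-Golgi network, endosomes and plasma membrane. Small GTPases of the Rab, ARF and Sar families mark each membrane, tethers such as TRAPP, HOPS and CORVET catch the arriving vesicle, and SNARE proteins fuse it. Retromer and sorting nexins bring receptors back from endosomes, while ESCRT complexes send them on to lysosomes. In fish gastrulae these routes carry adhesion molecules, receptors and morphogens as cells begin to move.

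RNA of whole embryos at 6 hours post fertilization, when gastrulation begins, was hybridised to 8 Affymetrix arrays. The embryos had received 3 nl of a 0.3 mM morpholino at the 1- to 2-cell stage. A morpholino is a synthetic oligomer that blocks translation or splicing of its target RNA, here prmt6, which encodes a protein arginine methyltransferase. The control group (3 arrays, called biological replicates in their titles) had received the morpholino named cMO. Embryos given the prmt6 MO were split into subtypes called normal (1 array), mild (1 array) and severe (3 arrays, called biological replicates). The severe, mild and normal groups thus shared 1 treatment and were selected by their outcome. The titles do not say whether replicates came from separate clutches. In such whole-embryo RNA, fewer cells of a type and less RNA per cell cannot be told apart.

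Values below are log2 signals, and differences are on the log2 scale. The authors had scaled every array to the same trimmed mean signal. A difference was called higher or lower where its limma p-value, adjusted over all 9301 probe sets tested, was below 0.05. The prmt6 transcript itself read 9.67, 9.87 and 9.56 on control arrays 1 to 3, 11.22 on the normal array, 11.13 on the mild array, and 11.30, 11.10 and 11.41 on severe arrays 1 to 3. A morpholino need not lower its target transcript, so this does not check the knockdown. Transcripts of embryonic layers and maternal transcripts also differed between the groups. Of 19 markers of the enveloping layer, the outer epithelium of the fish embryo, 16 were tested and 15 fell in severe embryos. Their summed linear signal was 48954 to 70891 on the control arrays, 48719 on the normal array, 13151 on the mild array and 4839 to 10032 on the severe arrays. None of the 19 was at 0 on every severe array, although 5 did not rise above the array background on any of them. Of these, krt18b and krt1-19d did not rise above it on any control array either. Of 12 yolk syncytial layer markers, 8 were tested, of which 6 fell and 1, the regulator gene mxtx2, rose (1.71, limma adjusted p = 0.00071). Their sum was 16469 to 25260 in controls, 19814 on the normal array, 12042 on the mild array and 5521 to 10754 in severe embryos. Of 26 maternal and oocyte transcripts, RNAs laid down in the egg, 25 were tested, of which 20 rose and 1 fell. Their sum was 33903 to 36757 in controls, 44516 on the normal array, 59748 on the mild array and 63162 to 69966 in severe embryos. The part of these shifts in the results below was not tested.

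In severe embryos 40 traffic genes rose and 12 fell. That is 28.6% and 8.57% of the 140 tested, where 23.8% of all 6192 genes tested were called higher and 16.7% lower. The median difference of the members was 0.29, against 0.14 over all genes by brightest probe set and 0.11 over all probe sets tested. With the arrays scaled on their spiked hybridisation controls, in place of the authors' scaling, the median over all probe sets became -0.17 in place of 0.11 and that of the members 0.01. This scaling left 10 of the 140 members higher and 14 lower, and 474 of all 9301 probe sets higher and 1903 lower. The severe and control arrays did not overlap for 59 members on the higher side (42.1%, against 32.6% of all genes) and for 17 on the lower side (12.1%, against 22.7%). All 52 called members were among them. Without control 2 or without severe 2, the number of lower members was 7, and the share of all genes called lower is not given there.

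The median difference was larger for endosomal than for secretory genes, though the medians were closer with quantile normalization (0.33 and 0.25). Of 75 endosomal genes tested, 25 rose and 5 fell (33.3% and 6.67%, against 23.8% and 16.7% of all genes). Their median difference was 0.40. Of 47 secretory genes, 11 rose (23.4%, against 23.8% of all genes) and 5 fell (10.6%, against 16.7%), with a median of 0.19. Counts of the smaller groups below are to be set against the same shares of all genes. Their counts under hybridisation control scaling are instead to be set against 474 higher and 1903 lower of all 9301 probe sets. Under hybridisation control scaling 7 endosomal genes were higher and 5 lower, with a median of 0.11. Of the secretory genes 3 were then higher and 7 lower, with a median of -0.10. The balance of calls turned over the whole array too, with 474 of 9301 probe sets higher, 1903 lower and a median of -0.17. The 18 remaining genes tested had 4 higher, 2 lower and a median of 0.18 (-0.11 under that scaling). Set against the mean of the controls, the endosomal median was 0.05, 0.11 and -0.14 on control arrays 1 to 3, 0.02 on the normal array, 0.30 on the mild array, and 0.53, 0.47 and 0.28 on severe arrays 1 to 3. The secretory median was 0.02, -0.03 and -0.00 on the control arrays, 0.04 on the normal array, 0.15 on the mild array, and 0.13, 0.22 and 0.18 on the severe arrays. Both medians were higher on each mild or severe array than on any control array, and so was the median of all probe sets. For all probe sets the mild array stood at 0.0300 and control 2 at 0.0294. The corresponding medians of all probe sets were 0.02, 0.03 and -0.05 for the controls, -0.03 for the normal array, 0.03 for the mild array and 0.16, 0.11 and 0.06 for the severe arrays. Over all genes by brightest probe set the median was -0.02 on the normal array and 0.08 on the mild array. The difference between the routes was not tested.

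**Figure D1:**
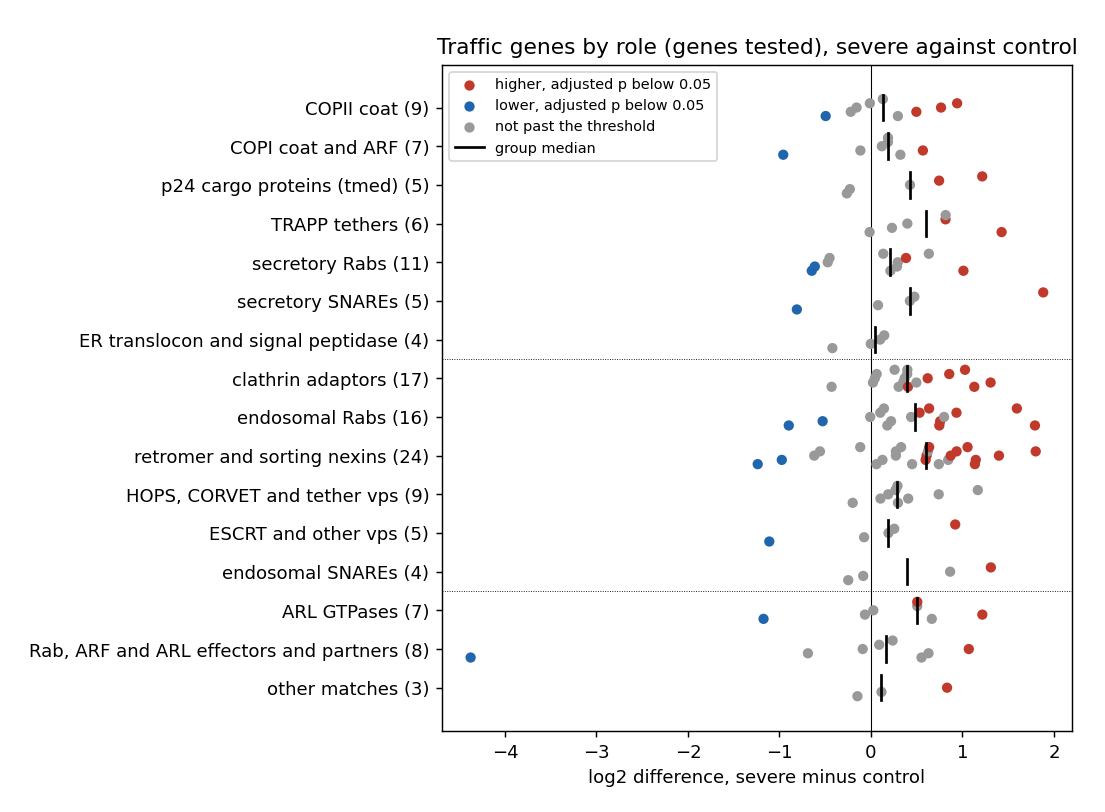
Each point is 1 tested traffic gene, placed by its log2 difference between severe and control embryos (3 arrays each) on the horizontal axis and by its group, with the number of genes tested, on the vertical axis; black bars are group medians. The medians run from 0.05 for the ER translocon to 0.61 for the TRAPP tethers, and the point farthest left is arl6ip5a at -4.38. When arrays are scaled on hybridisation controls, the medians of the COPII, COPI, secretory Rab, translocon, ESCRT, effector and other groups turn negative. That of all 9301 probe sets becomes -0.17.

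**Figure D2:**
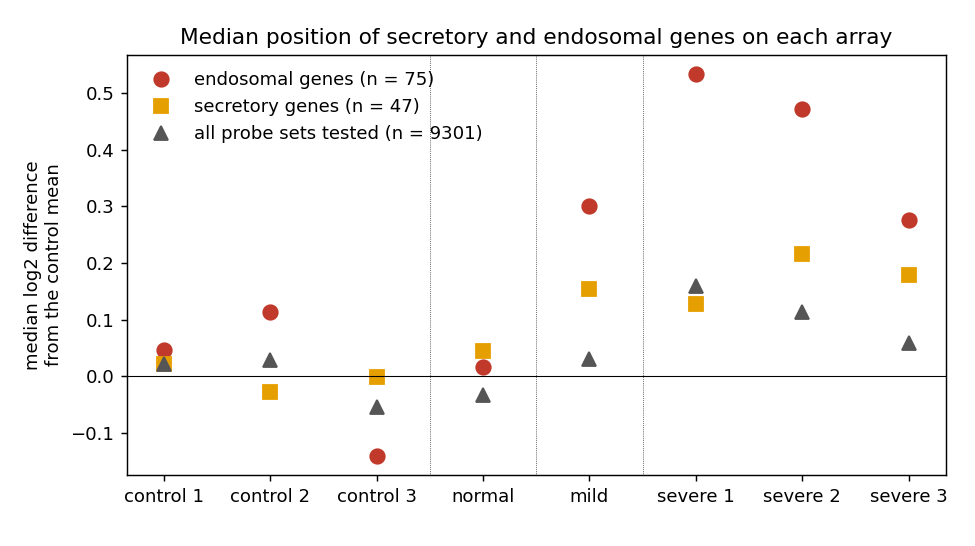
The vertical axis gives the median log2 difference from the mean of the 3 control arrays, and the horizontal axis gives the 8 arrays, for the 75 endosomal genes, the 47 secretory genes and all 9301 probe sets tested. Endosomal medians on severe arrays 1, 2 and 3 were 0.53, 0.47 and 0.28, and that of the mild array was 0.30.

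COPII coats bud vesicles from the ER. Of 9 genes tested, 3 rose and 1 fell, with a median of 0.13 (0 higher, 1 lower and -0.15 under hybridisation control scaling). The GTPase that starts the coat, sar1b, fell: it read 10.67, 10.62 and 10.83 on the control arrays, 10.76 on the normal array, 10.32 on the mild array and 10.06, 10.26 and 10.32 on the severe arrays. Every severe array lay below every control array, a difference of -0.49 ± 0.13 (SE; limma adjusted p = 0.0171). The coat genes that rose encode inner-layer proteins, namely sec23b, which stimulates the Sar1 GTPase (0.94, adjusted p = 0.0192), and the cargo-binding sec24b (0.50, adjusted p = 0.0259) and sec24c (0.77, adjusted p = 0.0230). The outer-cage genes sec13 (-0.01, 95% interval -0.33 to 0.31) and sec31a (-0.22, 95% interval -0.95 to 0.51) did not pass. On the mild array sec24c read 8.89, under the lowest control of 9.16, while severe arrays read 10.37, 10.17 and 9.53.

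None of the 4 COPII calls held through every single-array omission. The call of sar1b was lost without control 1 or severe 1 (differences -0.51 and -0.42, highest adjusted p = 0.0574), and that of sec23b without control 3, severe 1 or severe 2 (0.77 to 0.85, highest adjusted p = 0.0731). For sec24b this held without control 1, control 2, control 3 or severe 2 (0.40 to 0.54, highest adjusted p = 0.0984), and for sec24c without control 2, control 3, severe 1 or severe 2 (0.59 to 0.74, highest adjusted p = 0.0824).

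COPI coats return proteins from the Golgi to the ER and need an ARF GTPase. Of 7 COPI and ARF genes tested, 1 rose and 1 fell, with a median of 0.19 (0 higher, 1 lower and -0.10 under hybridisation control scaling). The Golgi GTPase gene arf5, among the brightest members, read 13.21, 13.20 and 13.43 in controls, 13.00 on the normal array, 12.69 on the mild array, and 12.17, 12.55 and 12.24 in severe embryos. Its severe arrays all lay below the controls, by 0.96 ± 0.14 in the mean, a 1.94-fold fall (limma adjusted p = 0.000888). The coat subunit gene cope read 11.45, 11.44 and 11.54 in controls, 12.00 on the normal array, 12.31 on the mild array, and 11.96, 11.78 and 12.39 in severe embryos. All 5 prmt6 morphant arrays exceeded the controls, and the severe difference was 0.57 ± 0.16 (adjusted p = 0.0211). Without control 1 or control 2 the difference stayed near 0.55 and missed the threshold (highest adjusted p = 0.0644).

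The other coatomer genes were not called. Their 95% intervals were -0.09 to 0.46 for copa, -0.14 to 0.38 for copb1, -0.39 to 0.16 for copb2, -0.07 to 0.44 for copg2 and -0.09 to 0.73 for copz1. A dimmer copb2 probe set gave a different result, -1.64 ± 0.42 (adjusted p = 0.0148), while another copb2 probe set gave -0.03. A dimmer copg2 probe set was of the opposite sign, at -0.34 (adjusted p = 0.109). The ER translocon, through which new proteins enter the ER, had no called gene among 4 and a median of 0.05 (0 higher, 1 lower and -0.23 under hybridisation control scaling). Its channel gene sec61a1a read 12.75 ± 0.03 (SD, n = 3) in controls and 12.75 ± 0.03 in severe embryos, with an interval of -0.24 to 0.23 for the difference.

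The p24 proteins, encoded by tmed genes, are cargo receptors that cycle between ER and Golgi. Of 5, 2 rose and none fell, with a median of 0.43. Under hybridisation control scaling 1 was higher and 2 were lower, with a median of 0.14. The signal of tmed3 was 8.94, 8.72 and 8.60 in controls, 8.83 on the normal array, 10.29 on the mild array and 9.56, 10.01 and 10.35 in severe embryos. Mild and severe arrays stood above every control, and the normal array lay within the control range. The severe difference was 1.22 ± 0.21, a 2.32-fold rise (limma adjusted p = 0.00239). A similar but smaller rise was measured for tmed9 (11.34 ± 0.09 in controls, 12.08 ± 0.13 in severe embryos, adjusted p = 0.00159), a call lost under hybridisation control scaling (0.46, adjusted p = 0.136). The abundant members tmed10 (-0.26) and tmed2 (-0.23) did not pass, with intervals of -0.52 to -0.01 and -0.54 to 0.08. One tmed3 probe set that can bind other transcripts read 0.21 (adjusted p = 0.602), while a further one read 1.11 (adjusted p = 0.0111).

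TRAPP complexes tether vesicles and activate Rab1 and Rab11. Of 6 genes tested, 2 rose and none fell (median 0.61; 1 higher, 0 lower and 0.32 under hybridisation control scaling). The TRAPP subunit gene trappc13 read 8.60, 9.18 and 8.79 in controls, 9.01 on the normal array, 9.63 on the mild array, and 10.45, 10.37 and 10.04 in severe embryos. The normal array fell among the controls, the mild array above them and the severe arrays above both. The severe difference was 1.43 ± 0.19, a 2.69-fold rise (limma adjusted p = 0.000678). The other called subunit, trappc8, rose by 0.82 (adjusted p = 0.0129) and was not called without severe 2 (0.71, adjusted p = 0.0550). For trappc4 the difference was also 0.82, with a wider spread and an adjusted p of 0.0556.

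Rab GTPases of the secretory route went both ways, with 2 of 11 higher, 2 lower and a median of 0.21 (0 higher, 1 lower and -0.07 under hybridisation control scaling). Rab1 acts between ER and Golgi, and its genes differed: rab1ab fell by 0.61 (limma adjusted p = 0.0279) and rab1ba rose by 0.38 (adjusted p = 0.0359). The signal of rab1ab was 9.12, 9.22 and 9.51 in controls, 9.27 on the normal array, 8.68 on the mild array, and 8.48, 8.65 and 8.88 in severe embryos. For rab1ba the values were 10.62, 10.57 and 10.66 in controls, 11.00 on the normal array, 11.28 on the mild array, and 10.92, 10.92 and 11.17 in severe embryos. Control and severe arrays did not overlap for either gene. The Golgi Rab rab6a rose by 1.01 (adjusted p = 0.0317), and rab18a, of the ER and lipid droplets, fell by 0.65 (adjusted p = 0.0328).

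These 4 Rab calls were each lost when some single arrays were left out. For rab1ba this was true of each of the 6 control and severe arrays (0.30 to 0.43, highest adjusted p = 0.127). It was true of rab1ab without control 2, control 3, severe 1 or severe 2 (-0.64 to -0.50, highest adjusted p = 0.0867). For rab6a the arrays were control 1, control 3, severe 1 and severe 2 (0.76 to 1.07, highest adjusted p = 0.117), and for rab18a control 1, control 2, control 3 and severe 2 (-0.68 to -0.61, highest adjusted p = 0.118).

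Among SNAREs of the secretory route, 1 of 5 tested genes rose and 1 fell (median 0.43, and 0.14 under hybridisation control scaling). The largest rise of any member was that of stx11a, whose mammalian counterpart acts in granule release by immune cells. It read 8.30, 8.28 and 7.43 in controls, 7.95 on the normal array, 8.99 on the mild array and 10.29, 9.98 and 9.39 in severe embryos. Severe arrays were highest, the mild array lay between them and the controls, and the normal array was inside the control range. The difference was 1.88 ± 0.30, a 3.69-fold rise (limma adjusted p = 0.00151), and a dimmer stx11a probe set gave 0.97 (adjusted p = 0.0455). The ER-Golgi SNARE gene sec22bb fell, with 7.87, 7.77 and 7.98 in controls, 7.21 on the normal array, 6.82 on the mild array and 7.25, 7.06 and 6.88 in severe embryos. All 5 morphant arrays lay below the controls, and the severe difference was -0.81 ± 0.22 (adjusted p = 0.0198). That call was lost without control 1, control 2, control 3 or severe 2 (-0.86 to -0.76, highest adjusted p = 0.0729).

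On the endosomal route, 6 of 17 tested clathrin adaptor genes rose and none was called lower, and 16 of the 17 differences were above 0 (median 0.40). Under hybridisation control scaling 1 was higher (ap1g2) and 0 lower, with a median of 0.11. AP-1 sorts cargo between the trans-Golgi network and endosomes. Its large-subunit gene ap1g2 read 7.95, 8.13 and 7.77 in controls, 8.11 on the normal array, 8.75 on the mild array and 9.43, 9.28 and 9.07 in severe embryos. Each severe array exceeded each control, by 1.31 ± 0.19 in the mean, or 2.48-fold (limma adjusted p = 0.000949). Its paralogue ap1g1 had a difference of 0.37 with a 95% interval of -0.28 to 1.02. The AP-1 genes ap1b1 (1.03, adjusted p = 0.00975) and ap1s3b (0.62, adjusted p = 0.0173) also rose.

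AP-2 selects receptors for endocytosis at the plasma membrane. The gene for its cargo-binding subunit, ap2m1b, read 9.67, 9.64 and 9.06 in controls, 9.48 on the normal array, 10.33 on the mild array and 10.64, 10.77 and 10.36 in severe embryos. The mild array and the severe arrays lay above all controls, and the severe difference was 1.13 ± 0.20 (limma adjusted p = 0.0023). A dimmer ap2m1b probe set gave 0.26 (adjusted p = 0.485). The paralogue ap2m1a rose by 0.40 (adjusted p = 0.0374), while ap2b1 had a difference of 0.02 with an interval of -0.29 to 0.34. In AP-3, which serves lysosome-related organelles, ap3s1 rose by 0.86 (adjusted p = 0.0199). The ap1s3b call was lost without severe 1 or severe 2 (both 0.58, highest adjusted p = 0.0629), and that of ap3s1 without severe 1 (0.84, adjusted p = 0.0570). The ap2m1a call was lost without control 1, control 2, control 3, severe 2 or severe 3 (0.32 to 0.43, highest adjusted p = 0.133).

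**Figure D3:**
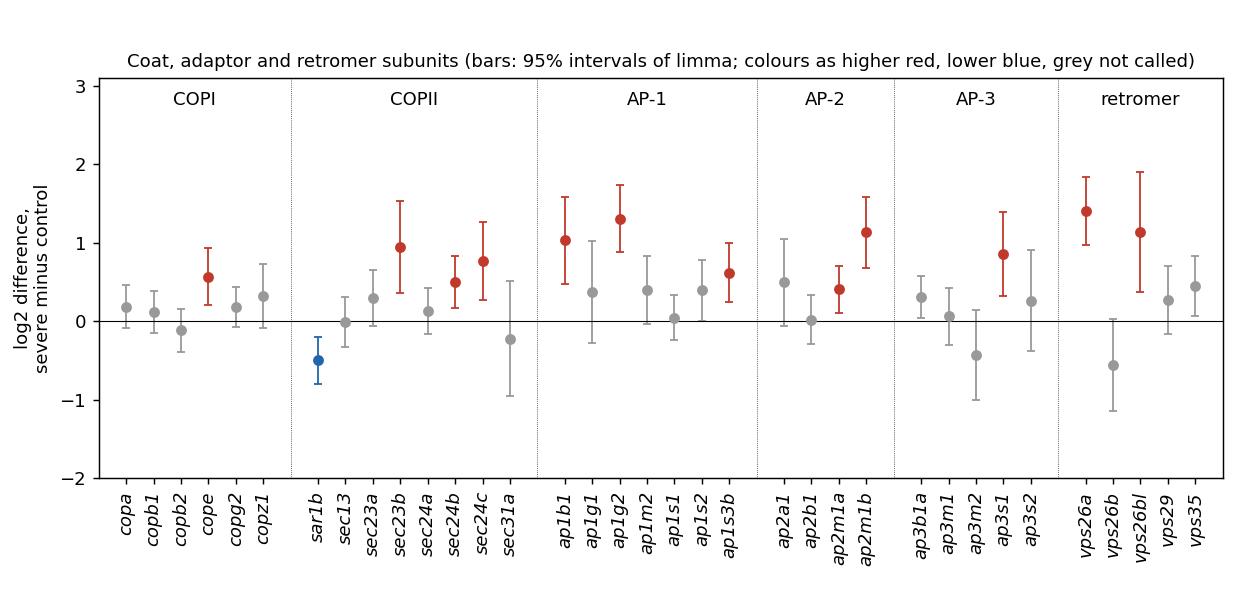
Points give the log2 difference between severe and control embryos on the vertical axis for the subunit genes named on the horizontal axis, with 95% limma intervals; red is called higher, blue is called lower and grey is not called. COPI intervals other than that of cope include 0. In COPII sec23b, sec24b and sec24c were called higher and sar1b lower. Also called higher were 3 AP-1 genes, 2 AP-2 genes, ap3s1 of AP-3 and 2 retromer genes.

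Among endosomal Rabs 7 of 16 rose and 2 fell, with a median of 0.49. Under hybridisation control scaling 2 were higher (rab15 and rab20) and 2 lower, with a median of 0.20. The largest rises were those of rab15, which in mammalian cells slows transport through early endosomes, and rab20, an endosome and phagosome Rab. The signal of rab15 was 6.31, 6.58 and 5.41 in controls, 6.22 on the normal array, 7.33 on the mild array and 8.10, 8.03 and 7.55 in severe embryos. For rab20 it was 7.52, 7.54 and 7.01 in controls, 7.24 on the normal array, 8.17 on the mild array and 9.46, 9.03 and 8.37 in severe embryos. Both genes had every mild and severe array above every control and the normal array within the control range. The severe differences were 1.79 ± 0.34 for rab15 (3.47-fold, limma adjusted p = 0.00355) and 1.60 ± 0.30 for rab20 (3.02-fold, adjusted p = 0.0034). The recycling Rab rab35b rose by 0.94 (adjusted p = 0.00132) and the early endosome Rab rab5c by 0.76 (adjusted p = 0.00774). The Rab5 genes rab5aa and rab5ab had differences of 0.14 and -0.01, with intervals of -0.25 to 0.54 and -0.33 to 0.32. A dimmer rab5aa probe set gave -0.17 (adjusted p = 0.408). Also higher were rab11ba, rab22a and rab32a, by 0.64, 0.75 and 0.53.

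The falls were those of rab7a, the late endosome Rab, and rab14, which acts between Golgi and endosomes. The signal of rab7a was 8.44, 8.58 and 8.67 in controls, 8.63 on the normal array, 8.11 on the mild array, and 7.36, 8.06 and 7.58 in severe embryos. Its severe arrays and its mild array lay under all controls, with a severe difference of -0.90 ± 0.23 (limma adjusted p = 0.0139). The difference of rab14 was -0.53 (adjusted p = 0.0310), and its call was lost without control 1, control 3, severe 1 or severe 2 (-0.57 to -0.46, highest adjusted p = 0.119). The rise of rab22a (adjusted p = 0.0291) was likewise lost without control 1, control 3, severe 1 or severe 3 (0.59 to 0.72, highest adjusted p = 0.0893).

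Retromer and the sorting nexins formed the largest group, with 10 of 24 higher, 2 lower and a median of 0.60. Under hybridisation control scaling 3 were higher (vps26a, snx10a and snx17) and 2 lower, with a median of 0.32. Retromer consists of Vps26, Vps29 and Vps35. The gene vps26a read 9.17, 9.11 and 8.69 in controls, 8.87 on the normal array, 9.65 on the mild array and 10.59, 10.47 and 10.11 in severe embryos. Severe arrays were above the mild array, which was above the controls, and the severe difference was 1.40 ± 0.19 (2.64-fold, limma adjusted p = 0.000696). A second form, vps26bl, rose by 1.14 (adjusted p = 0.0257), a call lost without control 1, control 3, severe 1 or severe 2 (0.91 to 1.14, highest adjusted p = 0.0911). The third, vps26b, had a difference of -0.56 with an interval of -1.15 to 0.03. The core genes vps35 (0.45, adjusted p = 0.0632) and vps29 (0.27, adjusted p = 0.289) did not pass.

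Sorting nexins bind endosomal lipids through a PX domain. The gene snx10a, whose mammalian counterpart is needed by bone-resorbing osteoclasts, read 8.86, 8.66 and 7.75 in controls, 7.73 on the normal array, 9.55 on the mild array and 10.72, 10.30 and 9.63 in severe embryos. Mild and severe arrays lay above the controls, with a severe difference of 1.80 ± 0.34 (3.49-fold, limma adjusted p = 0.00344). The receptor-recycling adaptor gene snx17 rose by 1.15 (adjusted p = 0.00338), snx9b of endocytosis by 1.06 (adjusted p = 0.00385), and snx2, a partner of retromer, by 0.94 (adjusted p = 0.0024). Also higher were snx4, which serves recycling (0.87), snx7 (0.64), snx27b, which links cargo to retromer (0.61), and snx11 (0.60). The call of snx7 was lost without control 1, control 2, control 3, severe 1 or severe 2 (0.55 to 0.66, highest adjusted p = 0.138), and that of snx27b without severe 2 (0.57, adjusted p = 0.0512).

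The 2 sorting nexin genes that fell were snx12 and snx8a. On the control arrays snx12 read 9.76, 9.57 and 9.76, on the normal array 9.38, on the mild array 9.00 and on the severe arrays 8.23, 8.72 and 8.43. All morphant arrays were below the controls, and the severe difference was -1.24 ± 0.18 (limma adjusted p = 0.000878). Of its dimmer probe sets, one gave -1.36 (adjusted p = 0.0187) and the other -0.66 (adjusted p = 0.0900). The fall of snx8a was 0.97 (adjusted p = 0.0164), in signal from 6.75 ± 0.12 to 5.77 ± 0.25 (SD, n = 3 each), and its call was lost without control 2 or severe 2 (-0.99 and -0.86, highest adjusted p = 0.0590).

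ESCRT genes and other vps genes gave 1 rise and 1 fall among 5, with a median of 0.19 (0 higher, 1 lower and -0.09 under hybridisation control scaling). The ESCRT-I gene vps28 read 9.95, 9.95 and 10.07 in controls, 9.54 on the normal array, 8.87 on the mild array and 9.13, 8.97 and 8.54 in severe embryos. Mild and severe arrays lay at a similar level below the controls, and the severe difference was -1.11 ± 0.18 (2.16-fold, limma adjusted p = 0.00172). The ESCRT-II gene vps36 was at 7.47 ± 0.12 in controls and 7.72 ± 0.20 in severe embryos and was not called, as were vps37a (-0.07) and vps4b (0.19). The gene vps9d1, named for a domain that activates Rab5, rose by 0.92 (adjusted p = 0.00726). Its other probe sets were too dim to be tested. Across processing settings its difference ran from 0.46 to 1.10, and the call was lost in some (highest limma adjusted p = 0.359).

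No gene of the HOPS and CORVET tethers and related vps proteins was called in severe embryos, although 8 of 9 differences were above 0 and the median was 0.29 (0.01 under hybridisation control scaling). The largest, 1.17 ± 0.42 for vps51, had an adjusted p of 0.0533. Its control arrays read 7.72, 7.81 and 6.39, and its severe arrays 8.91, 8.66 and 7.86, and control 3 lay below all of them. Dimmer probe sets were called for vps45 (1.14, adjusted p = 0.00788) and vps52 (-0.95, adjusted p = 0.0148), whose brightest probe sets gave 0.41 and -0.20. The endosomal SNARE gene stx8 rose. It read 6.78, 7.00 and 7.05 in controls, 7.45 on the normal array, 7.30 on the mild array and 8.34, 8.15 and 8.27 in severe embryos. The severe arrays stood apart from all others, with a difference of 1.31 ± 0.21 (2.48-fold, limma adjusted p = 0.00165), while vamp3, vamp4 and vamp8 were not called (-0.08, 0.87 and -0.25).

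The greatest change of any member was the fall of arl6ip5a, which encodes a PRA1-family membrane protein known in mammals from the ER. It was 10.90, 11.01 and 11.16 in controls, 10.57 on the normal array, 8.18 on the mild array and 6.05, 6.74 and 7.16 in severe embryos. The normal array was close to the controls, the mild array was far below them and the severe arrays were lower still, though above the array background of 5.10. The severe difference was -4.38 ± 0.27, a 20.7-fold fall (limma adjusted p = 3.26e-05), and the mild difference was -2.85 (adjusted p = 0.00385). Its paralogue went the other way: arl6ip5b read 8.54, 8.63 and 8.16 in controls, 7.88 on the normal array, 9.32 on the mild array and 9.73, 9.55 and 9.27 in severe embryos. Mild and severe arrays exceeded the controls, with a severe difference of 1.07 ± 0.20 (adjusted p = 0.00329). That call of arl6ip5b was lost under hybridisation control scaling (0.79, limma adjusted p = 0.106). Over the same arrays the median difference of the enveloping layer markers was -3.93 in severe embryos, -3.55 on the mild array and -0.15 on the normal array. The part of that shift in the fall of arl6ip5a was not tested.

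Of the 20 members too dim to be tested, rab25a is given here because of its values. It encodes a Rab of the Rab11 branch that in mammals is found in epithelia. Its signal was 6.74, 6.92 and 6.97 in controls, 5.50 on the normal array, 4.68 on the mild array and 3.71, 5.03 and 2.63 in severe embryos. The mild and severe values were not above the array background, so severe embryos were at least 3.41-fold lower. Without the filter on dim probe sets its limma adjusted p was 0.00387 in severe embryos and 0.143 on the mild array. The enveloping layer markers were low on the same arrays, and their part in this result was not tested.

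**Figure D4:**
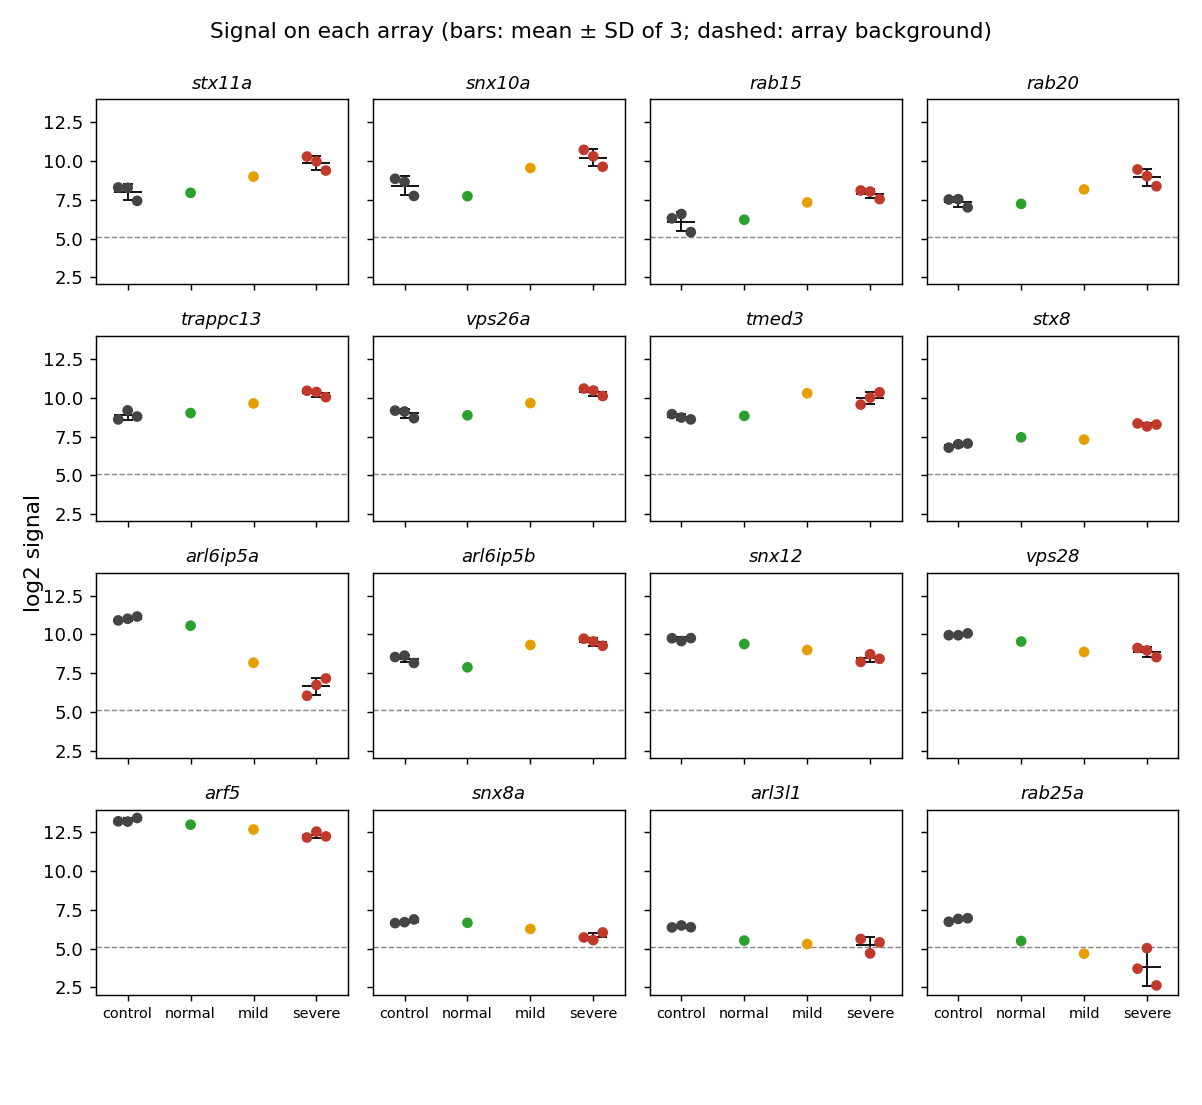
Each panel shows the log2 signal (vertical axis) of 1 gene on the 3 control, 1 normal, 1 mild and 3 severe arrays (horizontal axis); bars are the mean ± SD of 3 arrays and the dashed line is the array background of 5.10. The normal array lies within the control range for stx11a, rab15, rab20, trappc13, vps26a and tmed3, and outside it for others, arl3l1 and rab25a among them. The mild array lies on the side of the severe arrays, with arl6ip5a falling to 8.18 on the mild array and to between 6.05 and 7.16 on the severe arrays.

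On the mild array 9 members were higher and 3 lower than in controls, where 5.81% of all genes were called higher and 8.04% lower. This test has 1 array on the mild side and takes its spread from the replicated groups. The lower genes were arl6ip5a, vps28 and rab40c. The last is a Rab that serves a ubiquitin ligase, and it was counted here among the secretory Rabs. The fall of vps28 was 1.12 (limma adjusted p = 0.024), equal in size to its severe fall, and rab40c was at 8.34 on the mild array against 9.42, 9.29 and 9.47 in controls (-1.06, adjusted p = 0.0456). The higher genes were rab11ba (1.08, adjusted p = 0.00655), tmed3 (1.53, adjusted p = 0.0137), arl11 (1.55, adjusted p = 0.0335), snx2 (0.92, adjusted p = 0.0343), rab35b (0.79), rab1ba (0.67), vps16 (0.88), cope (0.84) and snx4 (0.81). The recycling endosome gene rab11ba read 10.75, 10.63 and 10.78 in controls, 10.99 on the normal array, 11.80 on the mild array and 11.26, 11.50 and 11.30 in severe embryos, so that the mild array was the highest of all. For vps16, of the HOPS and CORVET core, the mild array at 9.45 also exceeded every severe array (8.84, 8.61 and 8.85), and its severe difference of 0.19 was not called. The severe difference of rab40c, -0.45, was not called either, and a dimmer rab40c probe set gave 0.03 in severe embryos (limma adjusted p = 0.948). The mild difference of that dimmer probe set is not given.

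The mild counts rested on few arrays. The shares of all genes called without those arrays are not given, so the counts are not read as a result about the members. Without control 1 or without control 2 there were 2 higher and 1 lower, without severe 2 there were 4 higher and 2 lower, and without severe 3 there were 18 higher and 8 lower. Hybridisation control scaling left 0 higher and 3 lower. The mild median under that scaling was -0.21 over the members and -0.42 over all 9301 probe sets, so the whole array moved down. The calls of arl6ip5a, rab11ba and tmed3 held without any single array. That of arl11 was lost without any 1 control (1.45 to 1.65, highest adjusted p = 0.0913) and that of vps28 without control 1 or control 2 (both -1.14, highest adjusted p = 0.0640). The other mild calls (snx2, rab35b, rab1ba, vps16, cope, snx4 and rab40c) were each lost without control 1, without control 2 and without at least 1 further array, with the highest adjusted p between 0.0709 for rab35b and 0.121 for snx4.

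On the normal array no member was called against the controls. Of all genes 0.0323% were called. At an unadjusted limma p below 0.05 there were 7 members higher and 4 lower (7.86%, against 9.11% of all genes), with a lowest adjusted p of 0.369. That p belonged to arl11, an ARL GTPase gene, at 7.80 on the normal array against 6.60, 6.20 and 6.37 in controls, 7.93 on the mild array and 7.43, 7.31 and 8.07 in severe embryos. All 5 morphant arrays stood above the controls for this gene, and its severe difference of 1.22 was called (adjusted p = 0.008). With control and severe arrays 1 and 2 alone, a choice made after seeing the data, members were called in both directions on the normal array. The share of all genes called under that choice is not given.

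Severe embryos differed from the normal subtype, which had received the same morpholino, in 29 members. Of these 24 were higher and 5 lower, where 13.0% of all genes were called higher and 10.1% lower. This comparison shares its severe arrays with the one against controls. It has 1 array on the normal side and takes its spread from the replicated groups. The lower genes were arl6ip5a (-3.92, limma adjusted p = 0.0030), snx12 (-0.92), arf5 (-0.67), copb2 (-0.62) and sec61g (-0.98). The last 2 were not called against controls: sec61g, of the translocon, read 11.72, 11.70 and 12.34 in controls, 12.48 on the normal array and 11.32, 11.59 and 11.58 in severe embryos. The largest higher differences were those of snx10a (2.49, adjusted p = 0.0123), stx11a (1.93, adjusted p = 0.0177), rab20 (1.72, adjusted p = 0.0253), rab15 (1.68, adjusted p = 0.0392) and arl6ip5b (1.63, adjusted p = 0.0093). The early endosome gene rab5b and the SNARE gene sec22a were called here and not against controls. Their normal arrays read 9.15 and 6.27, their control arrays 10.24, 10.06 and 8.99 for rab5b and 7.39, 7.20 and 7.16 for sec22a, and their severe arrays 10.85, 10.49 and 10.36 for rab5b and 8.15, 7.65 and 7.37 for sec22a.

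The counts of this comparison moved with single arrays. The shares of all genes called under each omission and under hybridisation control scaling are not given. The counts that follow are therefore not read as a result about the members. Without control 2 there were 14 higher and 2 lower, without severe 1 there were 8 and 1, and without severe 2 there were 7 higher. Without severe 3 there were 37 higher and 10 lower, and without control 1 there were 2 lower. Hybridisation control scaling left 1 higher and 1 lower.

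No member was called between severe embryos and the mild array, or between the mild and the normal array, and 0% of all genes were called in either. At an unadjusted limma p below 0.05 the first comparison had 14 of the 140 members, 10 higher and 4 lower in severe embryos, where 10.7% of all genes passed. The second had 17, 15 higher and 2 lower on the mild array (12.1%, against 17.6% of all genes). The lowest adjusted p was 0.481 and 0.0767. With control and severe arrays 1 and 2 alone, a choice made after seeing the data, members were called in both comparisons. The share of all genes called under that choice is not given, so this is not read as a result about the members. Each of these comparisons has a single array on at least 1 side.

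A companion list of 65 traffic genes whose symbols the families above do not cover had 58 tested, of which 20 rose and 4 fell in severe embryos (34.5% and 6.90%, against 23.8% and 16.7% of all genes), with a median of 0.19. Under hybridisation control scaling 4 were higher and 5 lower, with a median of -0.09. Golgi SNARE genes rose, as gosr1 (0.92, limma adjusted p = 0.0008) and gosr2 (1.13, adjusted p = 0.0009), and so did use1 (1.07, adjusted p = 0.0025), a SNARE gene of return transport to the ER. Of 6 genes for the COG complex, a Golgi tether, cog2 (0.94, adjusted p = 0.0053) and cog4 (1.27, adjusted p = 0.0083) rose. The clathrin assembly gene picalma rose from 9.39 to 10.78 in the mean (1.38, adjusted p = 0.0012), and its paralogue picalmb fell from 7.22 to 5.72 (-1.50, adjusted p = 0.0041). The gene washc5, of the WASH complex that works with retromer, rose by 1.34 (adjusted p = 0.0007). Of the ESCRT-III genes, chmp4ba and chmp4c rose by 1.07 and 1.29, while chmp4bb and chmp1b fell by 0.59 and 1.00. On the mild array the median of the 58 was 0.23, against 0.08 over all genes by brightest probe set. For the normal array these medians were 0.08 and -0.02.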

How the data were processed

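The authors deposited log2 values for each probe set of the 8 arrays. The submitters' processing notes name MAS5, without a version. Linear signals averaged 500.1 on every array once the top and bottom 2% were trimmed, so differences are relative, and dim probe sets are noisy. The number of arrays limits the precision.

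Groups came from the titles, and gene symbols from the platform annotation; all 160 members matched a current RefSeq symbol. Where a gene had several probe sets (26 members) the brightest was used. Probe sets whose mean reached the 40th percentile (log2 5.585) entered limma 3.58.1 (R 4.3.3; lmFit, eBayes with trend; 4 residual degrees of freedom), with Benjamini-Hochberg adjustment. Array background was the 95th percentile of 17 Tag control probe sets, chosen after the data were seen; "at least N-fold" sets the brighter mean against it. The steps were tested on simulated data.

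Members, lists and tests were chosen with earlier results of these data known. The naming rule took the 3 smallest p-values of each secretory or endosomal group, the 5 largest rises and falls, the 5 smallest p-values of the mild array, and paralogues called in opposite directions, which made 50 genes; others were named after their values were seen. Deviations of same-numbered control and severe arrays correlated at 0.337, -0.0723 and 0.338, and those of differently numbered arrays at -0.452 to 0.385. With 3 arrays in each group these correlations cannot decide whether the numbers mark pairs. The numbers were not taken as pairs, and a shared batch was not tested. Alternatives covered normalization, filter, variance model, probe set choice, arrays and a replicate block. Figures were drawn with matplotlib 3.10.9.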

Additional observations from a re-analysis of the deposited data

How the results depend on the processing

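Across 17 alternative settings, 15 of the 52 called members kept their call in severe embryos wherever they were tested (ap1g2, arf5, arl6ip5a, rab7a, rab15, rab20, snx10a, snx12, snx17, stx11a, stx8, tmed3, trappc13, vps26a and vps28). Another 12 lost it only under hybridisation control scaling, and 25 lost it elsewhere too or instead. That scaling gave 10 higher in severe embryos, 0 higher on the mild array, 1 higher and 1 lower than the normal array, a secretory median of -0.10 and an endosomal median of 0.11. Over all 9301 probe sets the median under this scaling was -0.17 in severe embryos and -0.42 on the mild array. The scaling turned sec61a1b to -0.14, sec11a to -0.18, vps36 to -0.0277 and vps16 to -0.0937, none of which had been called in severe embryos. The cause was not tested.

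Mild counts of higher genes were 14 with quantile normalization, 19 with median centring and 4 without the filter. For severe against normal embryos, median centring gave 2 lower, no filter 3 lower, no variance trend 15 higher and 2 lower, and the mean of all probe sets 3 lower. The shares of all genes called under these settings are not given, so these counts are not read as a result about the members. On the mild array the median of the members was 0.29 with quantile normalization and 0.45 with median centring, against 0.23 in the main setting. Over all probe sets these medians were 0.11, 0.24 and 0.03. In severe embryos the secretory median was 0.25 and the endosomal median 0.33 with quantile normalization. Without the filter the secretory median was 0.15 over all 55 genes (0.19 over the 47 tested). It was 0.15 over the 39 genes left by a stricter filter and 0.14 with the mean of all probe sets.

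With control and severe arrays 1 and 2 only, chosen after seeing the data, 56 members were higher and 12 lower in severe embryos. There were 36 higher and 12 lower on the mild array, 8 and 9 on the normal array, 60 and 19 for severe against normal, 32 and 13 for severe against mild, and 20 and 4 for mild against normal. The share of all genes called under this choice is not given, so these counts are not read as a result about traffic genes. The uncalled sec11a turned to -0.0486.

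Leaving out each array in turn gave 27 to 45 higher and 7 to 12 lower members in severe embryos, 2 to 18 and 1 to 8 on the mild array, and 0 to 0 on the normal array. For severe against normal the ranges were 7 to 37 and 1 to 10, for severe against mild 0 to 0, and for mild against normal 0 to 1 in each direction. The shares of all genes called without each array are not given, so these ranges are not read as a result about the members. In severe embryos the secretory median ranged from 0.16 to 0.20 and the endosomal median from 0.30 to 0.49.

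With a replicate block 57 members were higher and 16 lower in severe embryos, with medians of 0.19 and 0.40. The share of all genes called with the block is not given, so these counts are not read as a result about the members. The replicate numbers were not taken to pair the arrays, and a shared batch was not tested. A pseudocount was not applied because the values are on a log scale already. Signal over background limits the 20 untested members, and 1 array each limits the mild and normal groups.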

Other observations

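Among the 20 genes on neither route, arl3l1, an ARL3-like GTPase gene, fell by 1.17 in severe embryos (limma adjusted p = 0.0161). It read 6.37, 6.50 and 6.38 in controls, 5.52 on the normal array, 5.30 on the mild array and 5.63, 4.70 and 5.41 in severe embryos. All 5 morphant arrays lay below the controls and close to the array background of 5.10. The gene passed the filter (a mean of 5.585 over the 8 arrays) through its controls, with a severe mean of 5.25, and the call was lost without control 2 or severe 2 (-1.13 and -0.90, highest adjusted p = 0.0556). The gene rab12 rose by 0.83 (adjusted p = 0.0351), a call lost without control 1, control 3, severe 1, severe 2 or severe 3 (0.68 to 0.91, highest adjusted p = 0.125). The ER-shaping gene arl6ip1 had a difference of -0.69 with an adjusted p of 0.0568.

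Of the other members too dim to be tested, stx3b, a SNARE gene of the apical membrane in epithelia, read 5.45, 4.67 and 4.53 in controls, 4.22 on the normal array, 5.78 on the mild array and 6.98, 7.01 and 5.52 in severe embryos. The severe arrays lay above the controls, and without the filter its limma adjusted p was 0.0395. The recycling Rab gene rab4a read 1.65 on the mild array, against 6.02, 5.50 and 5.82 in controls, 5.36 on the normal array and 4.78, 4.72 and 5.48 in severe embryos. The mild value and some severe values were below the array background of 5.10 and have no order among themselves. Both stx3b and rab4a were chosen after their values were seen.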
